A study of Capra hircus with 6 samples.

Results

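Transporter genes for amino acids, glucose and monocarboxylates were followed in a goat (Capra hircus) testis cell line in which UCHL1 or HSPA8 had been knocked down. The genes were taken by symbol, as every entry of the deposited table that begins with SLC1A, SLC2A, SLC3A, SLC5A, SLC6A, SLC7A, SLC16A, SLC36A, SLC38A or SLC43A. This gave 91 of 33229 entries. Of these, 79 carried read counts, out of 16599 entries with counts, and 52 of the 79 had enough reads to enter the test, out of 12665 genes tested. All 3 lines were mGSCs-I-SB, which the labels call spermatogonial stem cells, germ cells of the testis that renew themselves. They were grown in DMEM/F12 with 10% fetal bovine serum and carried short hairpin RNA against UCHL1 (shUCHL1), short hairpin RNA against HSPA8 (shHSPA8) or a control hairpin (shCON, genotype WT in the labels). Each line gave 2 mRNA libraries. UCHL1 is a ubiquitin hydrolase and HSPA8 the constitutive cytosolic HSP70 chaperone. The labels do not give the number of hairpins or clones, nor say that a line's libraries stem from independent cultures. The p-values therefore speak only of the spread among these libraries, and that spread may be technical.

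Solute carriers of these families move nutrients across the plasma membrane and across organelle membranes. Facilitative glucose transporters (SLC2A) bring hexoses in along their gradient, and monocarboxylate transporters (SLC16A) carry lactate and pyruvate together with protons. Amino acids enter through sodium-coupled uptake carriers (SLC1A, SLC6A, SLC38A) and through exchangers, several of which are light chains (SLC7A) bound to a heavy chain (SLC3A). In the testis, somatic cells are known to release lactate that germ cells take up. The prefix rule also takes in genes that carry other substrates, such as inositol, vitamins, taurine and creatine. It takes in 2 genes that are not transporters as well: SLC2A4RG, a zinc finger transcription factor, and SLC7A6OS, which lies opposite SLC7A6.

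Total counts lay between 15710500 and 16417300 per library. Levels are given as CPM (counts scaled to library size, using TMM-adjusted library sizes) when lines are compared, and as the deposited FPKM (fragments scaled to transcript length and library size) when genes are compared. UCHL1 was 4.46-fold lower in shUCHL1 than in shCON, and HSPA8 1.58-fold lower in shHSPA8 than in shCON. Libraries of the same line differed by 2.38 to 22.1 times the chi-square that sampling noise gives per degree of freedom, least in shUCHL1 and most in shCON. Across 10340 genes, the difference between replicate 1 and replicate 2 ran with transcript length in shCON (r = 0.532), the other way in shHSPA8 (r = -0.508), and less in shUCHL1 (r = 0.292), a description over genes that share their libraries. Of 20 spermatogonial stem cell markers, 13 had values and 7 averaged at least 1 FPKM. The 7 were CD9 (213 to 256 FPKM), UCHL1 (118 to 534 FPKM), THY1 (37.7 to 98.3 FPKM), and ITGA6, FOXO1, ETV5 and ID4 (0.89 to 21.9 FPKM). Of those averaging less, the germ cell helicase DDX4 stood at 0.14 to 0.67 FPKM and the GDNF receptor GFRA1 at 0.02 to 0.12 FPKM. Of the markers of peritubular myoid cells and fibroblasts, 11 of 12 averaged at least 1 FPKM, with COL1A1 at 1324 to 1792 FPKM. With the stem cell list split, the data do not bear out the labelled cell type, and the line is called by its name here. The summed FPKM of the stem cell list, which holds UCHL1 itself, was 434 and 455 in shUCHL1, 837 and 757 in shHSPA8, and 819 and 876 in shCON. That of the myoid and fibroblast list was 7236 and 7446 in shUCHL1, 9272 and 8852 in shHSPA8, and 6763 and 7569 in shCON. Its members did not run the same way across the lines. Smooth muscle actin ACTA2 stood at 369 and 393 FPKM in shUCHL1, 872 and 749 FPKM in shHSPA8, and 974 and 1190 FPKM in shCON. TAGLN stood at 691 and 721 FPKM in shUCHL1, 1705 and 1456 FPKM in shHSPA8, and 1530 and 1962 FPKM in shCON. The matrix gene DCN stood at 785 and 829 FPKM in shUCHL1, 711 and 669 FPKM in shHSPA8, and 362 and 358 FPKM in shCON. In the leukocyte list, LCP1 stood at 35.0 and 36.8 FPKM in shUCHL1, 63.8 and 60.2 FPKM in shHSPA8, and 122 and 123 FPKM in shCON, while PTPRC, which defines leukocytes, was at most 0.04 FPKM. The members of this list did not run the same way either. CORO1A was lower in every knockdown library than in both shCON libraries, like LCP1, whereas CD14 was higher in every knockdown library. CD68 was higher in shHSPA8 than in shCON and overlapped between shUCHL1 and shCON. The contractile genes ACTA2 and TAGLN were thus lowest in shUCHL1 and DCN lowest in shCON. The part of cell makeup in the results below was not tested, and in bulk RNA fewer cells of a type and less RNA per cell cannot be told apart.

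On the per-length scale, SLC38A2, a sodium-coupled carrier of small neutral amino acids, had the highest mean FPKM over the 6 libraries (149, range 132 to 171). The glucose transporter SLC2A1 followed with 141 FPKM, but over a wider range of 72.9 to 209. SLC43A3, which carries purine bases, had 119 FPKM. Then came the glutamine exchanger SLC1A5 (82.5 FPKM), the heavy chain SLC3A2 (79.8 FPKM), the monocarboxylate transporters SLC16A1 (66.8 FPKM) and SLC16A3 (52.0 FPKM), and the leucine transporter SLC7A5 (46.2 FPKM). The ranges over libraries of neighbours in this order overlapped, except that SLC43A3 (111 to 139 FPKM) stood above SLC1A5 (63.2 to 98.0 FPKM). SLC2A1 had rank 1 among the tested transporter genes in shUCHL1 replicate 2 and in both shHSPA8 libraries, and rank 3 in both shCON libraries. SLC16A3 had ranks 10 and 11 in shHSPA8 and ranks 5 and 4 in shCON. Of the 52 tested genes, 22 averaged at least 10 FPKM and 14 stayed under 1 FPKM.

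In shUCHL1, transporter transcripts that changed were mostly higher. With edgeR's quasi-likelihood test, adjusted over all genes by Benjamini and Hochberg's method at a threshold of 0.05, 12 of the 52 tested transporter genes rose (23.1%, against 8.54% of all genes tested) and 3 fell (5.77%, against 7.15%). In shHSPA8, 7 rose (13.5%, against 8.66% of all genes tested) and 2 fell (3.85%, against 6.02%). Between the knockdown lines, 5 were higher in shUCHL1 (9.62%, against 6.20% of all genes tested) and 4 were lower (7.69%, against 8.35%). The median log2 fold change of the tested transporter genes was 0.17 in shUCHL1 and 0.19 in shHSPA8 against shCON, beside 0.01 and -0.003 over all genes tested. In shUCHL1 against shHSPA8 it was -0.03, beside 0.02 over all genes. Scaling by library size alone moved the median of all genes in this last comparison to 0.12 and that of the transporter genes to 0.07, so a direction for the group there depends on the scaling. It also moved the share of higher genes among all calls to 68.1% in shUCHL1 against shCON (54.5% with TMM) and to 64.4% in shUCHL1 against shHSPA8 (42.6% with TMM). These are descriptions: the comparisons with shCON share their control libraries, and a gene that only 1 line expresses can pass the low-count filter through that line. Leaving out a shUCHL1 library left 3 genes up and none down in shUCHL1 with either library removed. Without shHSPA8 replicate 2, 3 genes were up in shHSPA8. Between the knockdown lines, the genes higher and lower in shUCHL1 came to 1 and 0 without shUCHL1 replicate 1, 0 and 0 without shUCHL1 replicate 2, 1 and 1 without shHSPA8 replicate 1, and 4 and 1 without shHSPA8 replicate 2. They came to 8 and 10 without either shCON library. In shUCHL1 7 genes were down without shCON replicate 1, and 1 without either shHSPA8 library. In shHSPA8, 4 were down without shCON replicate 2 and 1 without shHSPA8 replicate 1. Where only 1 library of a line remains, its spread is taken from the lines that kept both. The number of all genes called also changed with the library left out, over the wide ranges given at the end. Counts from left-out libraries are therefore not read as a result about the transporter genes. The same holds for such counts in the other gene lists below.

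**Figure D1:**
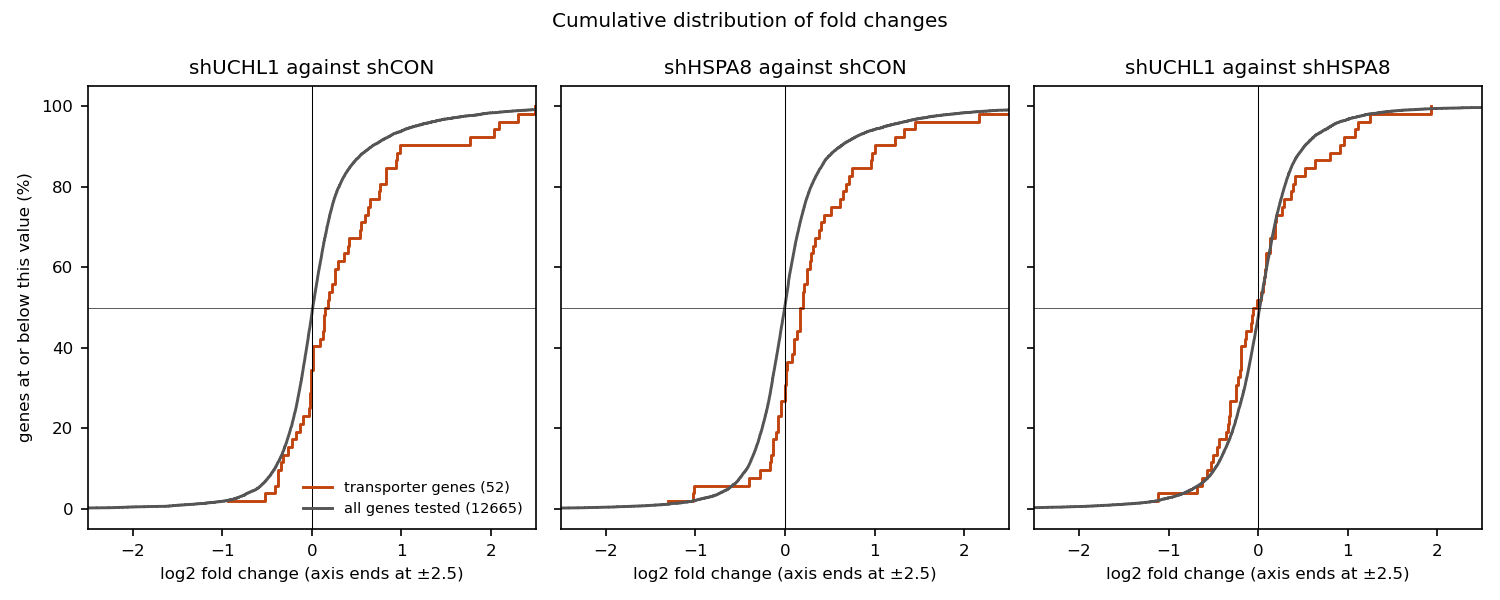
Share of genes at or below each log2 fold change, for the 52 tested transporter genes and all 12665 genes tested, in the 3 comparisons. The axes end at ±2.5, beyond which SLC6A20 lies in shHSPA8 against shCON. The transporter curve lies to the right of that of all genes over most of its range in both comparisons with shCON, with medians of 0.17 and 0.19, and crosses it between the knockdown lines.

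**Figure D2:**
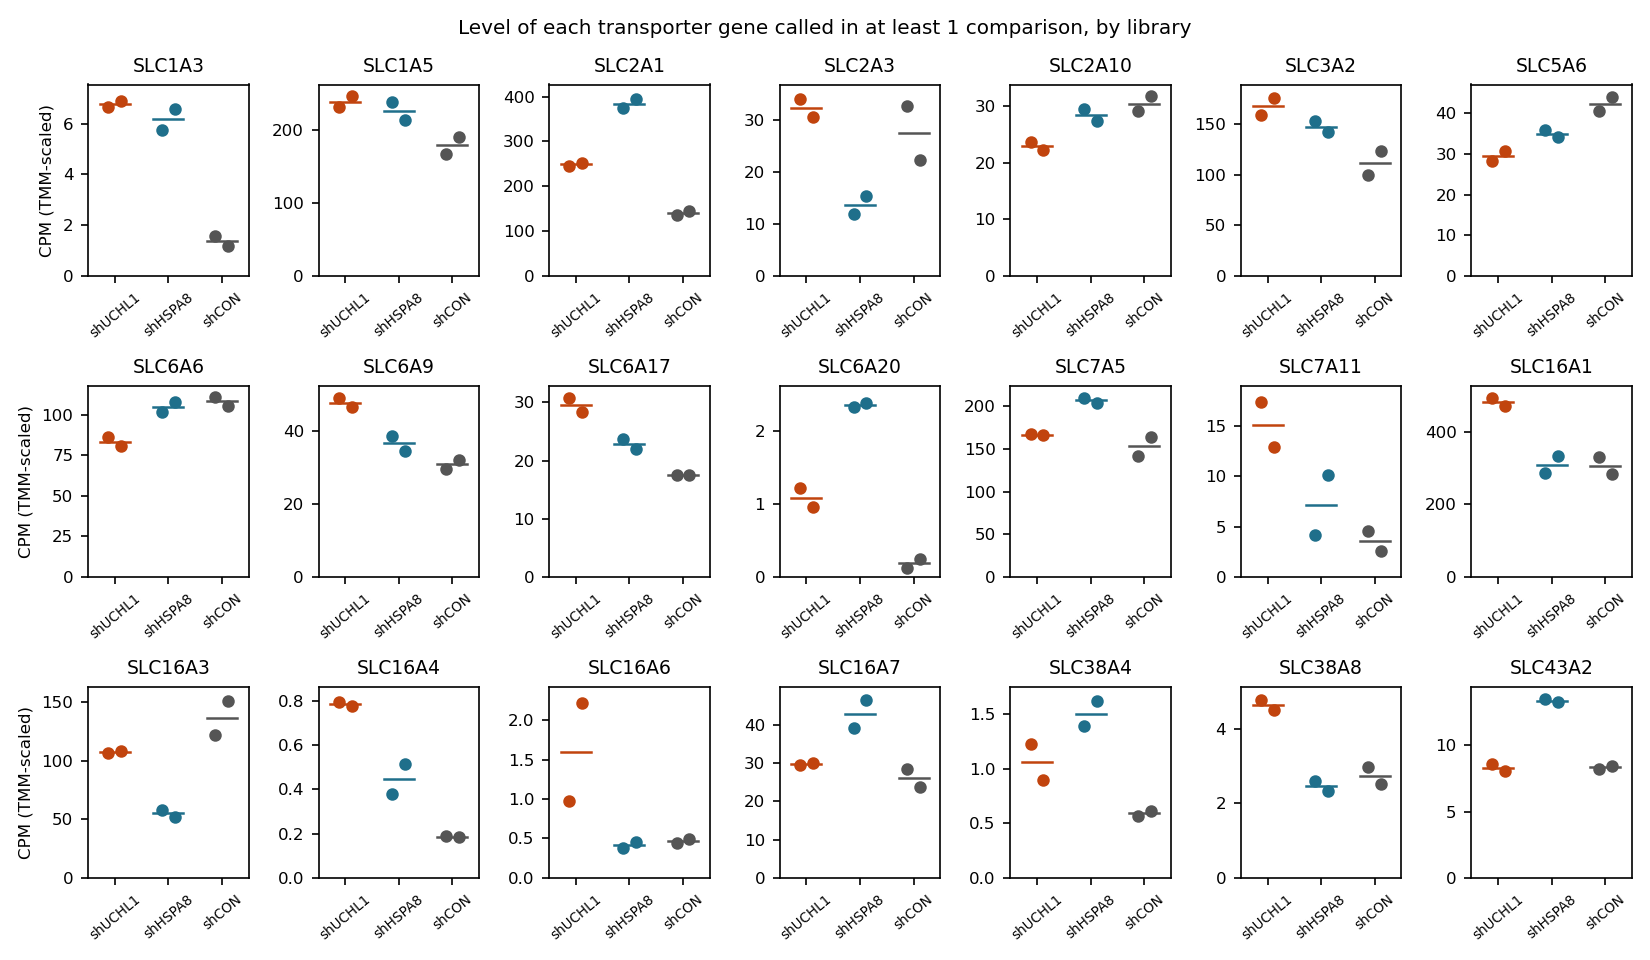
CPM in each library (points) and the mean of each line (short lines) for the 21 transporter genes that passed the test in at least 1 of 3 comparisons. Each panel has its own axis from 0. SLC2A1, SLC1A3 and SLC6A20 stood above shCON in all libraries of both knockdown lines, and SLC16A3 and SLC2A3 were lowest in shHSPA8.

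**Figure D3:**
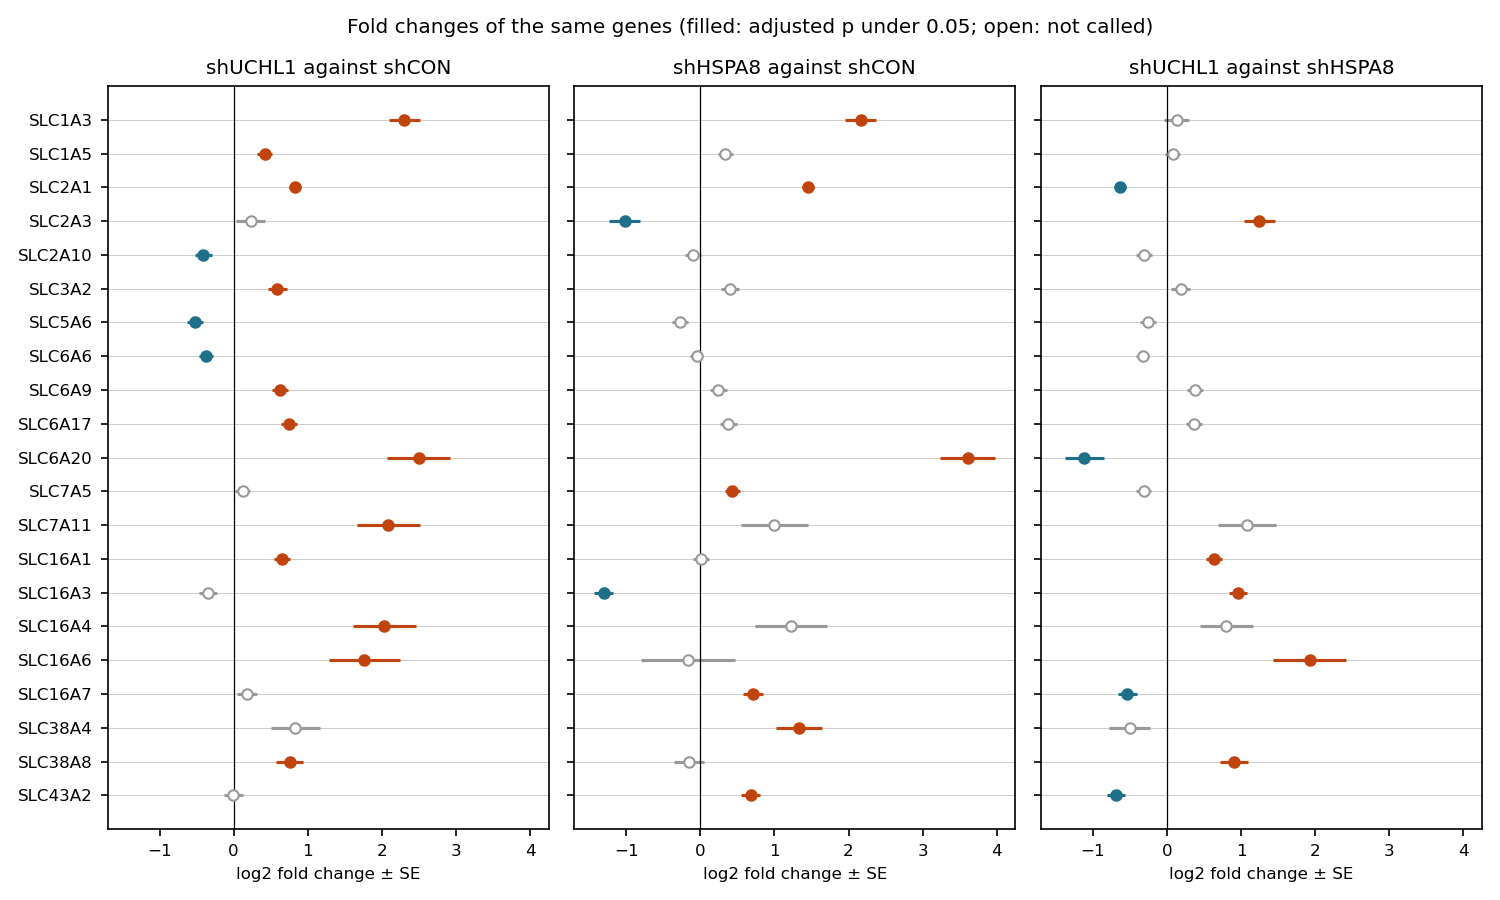
Log2 fold change with its standard error for the same 21 genes in each comparison, filled where the adjusted p was under 0.05. SLC2A1 was higher than shCON in both knockdown lines and higher in shHSPA8 than in shUCHL1, and SLC16A1 was higher in shUCHL1 than in both other lines.

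Glucose transporters parted by line. SLC2A1, the widely expressed basal glucose transporter, rose in both knockdown lines and most in shHSPA8, while SLC2A3, a high-affinity glucose transporter, fell in shHSPA8. SLC2A1 stood at 245 and 252 CPM in shUCHL1, 375 and 394 CPM in shHSPA8, and 135 and 146 CPM in shCON, so the lines did not overlap. It was 1.77-fold higher in shUCHL1 than in shCON (log2 fold change 0.82, SE 0.08, edgeR adjusted p = 0.0012) and 2.73-fold higher in shHSPA8 than in shCON (1.45, SE 0.08, edgeR adjusted p = 0.000107). It was lower in shUCHL1 than in shHSPA8 (-0.63, SE 0.08, edgeR adjusted p = 0.00443). Both calls against shCON passed without any single library, while the difference between the knockdown lines had an edgeR adjusted p of 0.0867 without shUCHL1 replicate 1 and 0.0707 without shUCHL1 replicate 2. The annotated span of SLC2A1 overlaps that of LOC102183480, for which no function is given here and which moved the same way (log2 fold change 1.03 in shUCHL1 and 1.77 in shHSPA8). Strand handling is not stated, so reads of overlapping genes may not be separable.

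SLC2A3 had 33.9 and 30.6 CPM in shUCHL1, 11.8 and 15.3 CPM in shHSPA8, and 32.7 and 22.3 CPM in shCON. Both shHSPA8 libraries lay below all others, whereas shUCHL1 overlapped shCON. In shHSPA8 its level was 2.03-fold below that in shCON (-1.02, SE 0.21, edgeR adjusted p = 0.0192), and in shUCHL1 its level was 2.38-fold that in shHSPA8 (1.25, SE 0.21, edgeR adjusted p = 0.0104). In shUCHL1 against shCON it did not pass the test (0.23, SE 0.20, edgeR adjusted p = 0.505). Without shHSPA8 replicate 1 the edgeR adjusted p in shHSPA8 against shCON was 0.0997, and between the knockdown lines it was 0.0633. The difference between the knockdown lines had an edgeR adjusted p of 0.0787 when shUCHL1 replicate 1 was left out and of 0.0566 when replicate 2 was.

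Because FPKM is per length, the makeup of the SLC2A transcript pool, which includes the inositol carrier SLC2A13, could be read in each library. SLC2A1 held 70.7% and 72.1% of the summed FPKM of SLC2A transporters (SLC2A4RG left out) in shUCHL1, 83.4% and 83.2% in shHSPA8, and 57.7% and 61.3% in shCON. SLC2A3 held 14.8% and 13.2% in shUCHL1, 4.0% and 4.93% in shHSPA8, and 21.2% and 14.2% in shCON. The pool itself came to 196 and 199 FPKM in shUCHL1, 242 and 252 FPKM in shHSPA8, and 127 and 129 FPKM in shCON. On the FPKM scale the shHSPA8 transcript pool was thus the highest and leaned most on SLC2A1. Among the other genes of the family, SLC2A10 fell in shUCHL1, with 23.7 and 22.2 CPM in shUCHL1 and 29.2 and 31.8 CPM in shCON (-0.41, SE 0.11, edgeR adjusted p = 0.0459). That call was close to the threshold and was lost without each library other than shCON replicate 1, where the edgeR adjusted p was 0.0974 (shCON replicate 2 left out), 0.226 and 0.311 (shUCHL1 replicate 1 or 2), and 0.0728 and 0.0724 (shHSPA8 replicate 1 or 2). SLC2A6, SLC2A8, SLC2A12, the inositol carrier SLC2A13 and SLC2A4RG passed no comparison. SLC2A4RG, the most abundant of these on the FPKM scale, had 23.8 and 25.1 CPM in shUCHL1, 37.9 and 34.9 CPM in shHSPA8, and 25.8 and 37.5 CPM in shCON. Its edgeR adjusted p was 0.0111 in shUCHL1 without shCON replicate 1 and 0.0308 in shHSPA8 without shCON replicate 2. In shUCHL1 against shHSPA8 its edgeR adjusted p was 0.00698 and 0.0072 when shCON replicate 1 or 2 was dropped.

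**Figure D4:**
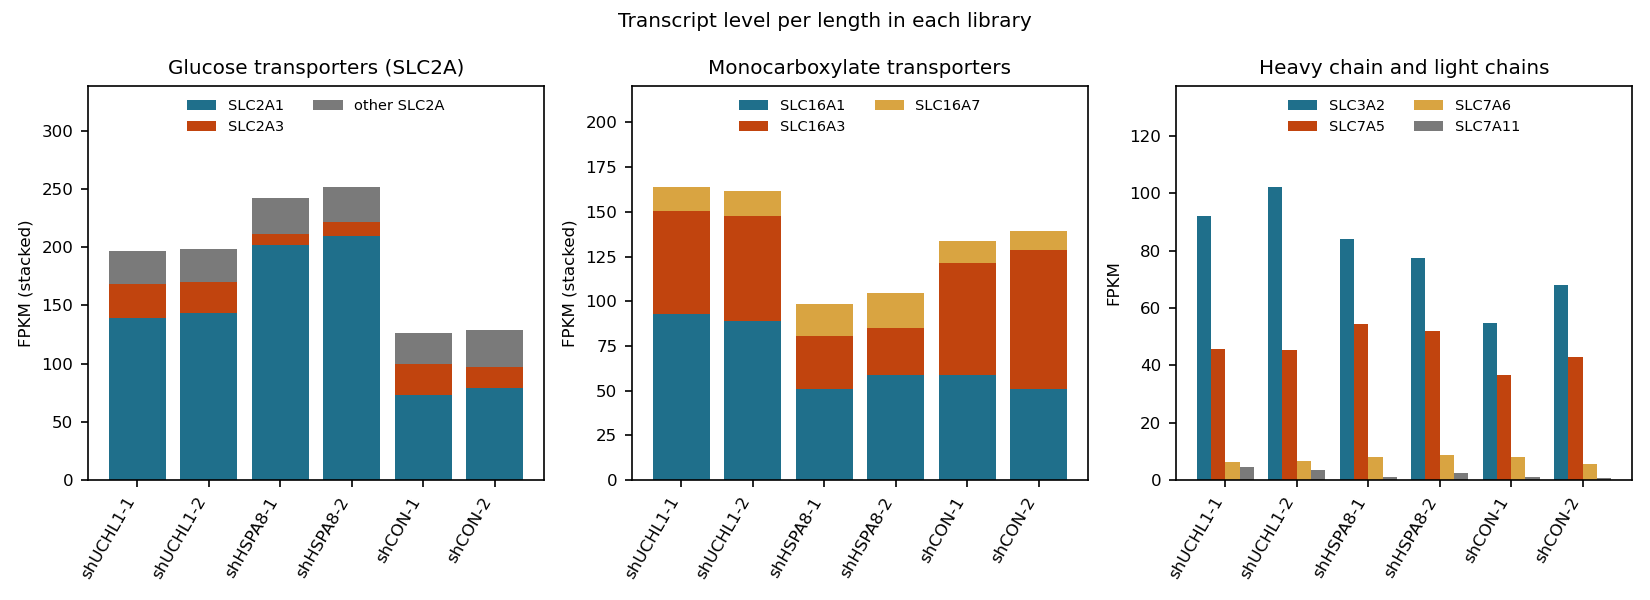
FPKM in each library for transcripts of SLC2A transporters, SLC2A4RG left out (stacked). The other panels give the monocarboxylate transporters SLC16A1, SLC16A3 and SLC16A7 (stacked), and the heavy chain SLC3A2 beside 3 light chains. The SLC2A pool reached 242 and 252 FPKM in shHSPA8 against 127 and 129 FPKM in shCON, while the monocarboxylate pool was smallest in shHSPA8.

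Among the monocarboxylate transporters, different members passed the test against shCON in each knockdown line. SLC16A1, which takes up or releases lactate and pyruvate in many tissues, rose in shUCHL1. SLC16A3, the lactate exporter of glycolytic cells, fell in shHSPA8, and SLC16A7, a high-affinity pyruvate and lactate carrier, rose there. SLC16A1 had 492 and 470 CPM in shUCHL1, 286 and 332 CPM in shHSPA8, and 330 and 283 CPM in shCON. The shUCHL1 libraries stood above the other 4, which overlapped. The rise was 1.57-fold against shCON (0.65, SE 0.11, edgeR adjusted p = 0.00932), and SLC16A1 was also higher in shUCHL1 than in shHSPA8 (0.64, SE 0.11, edgeR adjusted p = 0.0118). In shHSPA8 against shCON the log2 fold change was 0.01 (SE 0.11, edgeR adjusted p = 0.958). Without shUCHL1 replicate 1 or 2 the edgeR adjusted p against shCON was 0.0939 or 0.0698, and against shHSPA8 it was 0.113 or 0.0852. Against shHSPA8 it was 0.0815 without shHSPA8 replicate 1 in the same edgeR test.

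SLC16A3 had 106 and 108 CPM in shUCHL1, 58.2 and 52.0 CPM in shHSPA8, and 122 and 150 CPM in shCON. All 3 lines stood apart, with shHSPA8 lowest. SLC16A3 was 2.47-fold lower in shHSPA8 relative to shCON (-1.30, SE 0.13, edgeR adjusted p = 0.000743), a call that passed without any single library. In shUCHL1 against shCON its log2 fold change of -0.34 (SE 0.12) did not pass the test (edgeR adjusted p = 0.107), but had an edgeR adjusted p of 0.0156 without shCON replicate 1. In shUCHL1 the level of SLC16A3 was 1.95-fold that in shHSPA8 (0.96, SE 0.13, edgeR adjusted p = 0.00428), and the edgeR adjusted p was 0.0504 or 0.0536 without shUCHL1 replicate 1 or 2. SLC16A7 had 29.3 and 29.9 CPM in shUCHL1, 39.2 and 46.4 CPM in shHSPA8, and 28.5 and 23.8 CPM in shCON. Both shHSPA8 libraries stood above the other 4. Its rise in shHSPA8 was 1.64-fold against shCON (0.71, SE 0.13, edgeR adjusted p = 0.0132, and 0.0796 without shHSPA8 replicate 2). It was lower in shUCHL1 than in shHSPA8 (-0.53, SE 0.13, edgeR adjusted p = 0.0395). That difference lost its call without shUCHL1 replicate 1 or 2 (edgeR adjusted p = 0.250 and 0.213) or without shHSPA8 replicate 1 or 2 (0.069 and 0.165).

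On the per-length scale, SLC16A1 made up 56.7% and 55.0% of the summed FPKM of SLC16A1, SLC16A3 and SLC16A7 in shUCHL1, 51.8% and 55.8% in shHSPA8, and 43.9% and 36.6% in shCON. SLC16A3 made up 35.0% and 36.2% in shUCHL1, 30.3% and 25.1% in shHSPA8, and 46.7% and 55.7% in shCON. In shCON SLC16A3 was thus the leading transcript of the 3, and in both knockdown lines SLC16A1 was. The sum was 164 and 162 FPKM in shUCHL1, 98.3 and 105 FPKM in shHSPA8, and 134 and 139 FPKM in shCON. Basigin (BSG), the membrane chaperone of SLC16A1 and SLC16A3, passed no comparison. Its relative embigin (EMB), a partner of SLC16A7, rose in shUCHL1 (2.66, SE 0.44, edgeR adjusted p = 0.00811) and in shHSPA8 (1.90, SE 0.47, edgeR adjusted p = 0.0386), at 0.558 CPM in shCON.

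Fainter members of the family rested on few reads. SLC16A4 had 13 and 13 counts in shUCHL1, 6 and 8 in shHSPA8, and 3 and 3 in shCON. Its rise in shUCHL1 (2.03, SE 0.43, edgeR adjusted p = 0.0197) was lost without shCON replicate 1 or 2 (edgeR adjusted p = 0.066 and 0.0868) and without shUCHL1 replicate 1 or 2 (0.134 and 0.124). SLC16A6 had 16 and 37 counts in shUCHL1, 6 and 7 in shHSPA8, and 7 and 8 in shCON. The shUCHL1 libraries were both above the rest but far apart from each other. Its rises against shCON (1.76, SE 0.48, edgeR adjusted p = 0.0491) and against shHSPA8 (1.93, SE 0.50, edgeR adjusted p = 0.0429) stood close to the threshold. Without shUCHL1 replicate 2 the log2 fold changes were 1.04 and 1.21 and the edgeR adjusted p 0.309 and 0.257. The call of SLC16A6 against shCON was also lost when shCON replicate 1 or 2 (edgeR adjusted p = 0.108 and 0.118) or shHSPA8 replicate 1 or 2 (0.0704 and 0.0702) was dropped. Its call against shHSPA8 was lost when shHSPA8 replicate 1 or 2 was dropped (edgeR adjusted p = 0.192 and 0.124). The span of SLC16A6 overlaps that of ARSG, a lysosomal sulfatase gene, which had a log2 fold change of 1.70 in both knockdown lines against shCON. The remaining tested genes of the family passed no comparison, with SLC16A14 the most abundant of them per length (80.0 and 75.4 CPM in shUCHL1, 67.5 and 78.9 CPM in shHSPA8, and 72.9 and 63.5 CPM in shCON).

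Of the 4 tested genes of the SLC1A family, which carry glutamate and small neutral amino acids, 2 rose in shUCHL1 and 1 rose in shHSPA8. Over all genes tested, 8.54% rose in shUCHL1 and 8.66% in shHSPA8. SLC1A3, a sodium-coupled glutamate transporter best known from astrocytes, rose most. It stood at 6.66 and 6.89 CPM in shUCHL1, 5.75 and 6.59 CPM in shHSPA8, and 1.58 and 1.16 CPM in shCON. Both knockdown lines lay far above shCON, and both shUCHL1 libraries stood slightly above both shHSPA8 libraries. The rise was 4.92-fold in shUCHL1 (2.30, SE 0.21, edgeR adjusted p = 0.000831) and 4.48-fold in shHSPA8 (2.16, SE 0.21, edgeR adjusted p = 0.000811), and both calls passed without any single library. Between the knockdown lines the log2 fold change was 0.13 (SE 0.17, edgeR adjusted p = 0.636). SLC1A5, which exchanges glutamine for other neutral amino acids, had 232 and 246 CPM in shUCHL1, 239 and 214 CPM in shHSPA8, and 168 and 190 CPM in shCON. All knockdown libraries were above both shCON libraries. Only shUCHL1 passed the test (0.42, SE 0.10, edgeR adjusted p = 0.0353), while shHSPA8 did not (0.34, SE 0.10, edgeR adjusted p = 0.0711), and the difference between them was 0.08 (SE 0.10, edgeR adjusted p = 0.653). The shUCHL1 call was lost without shCON replicate 1 (edgeR adjusted p = 0.0756), shUCHL1 replicate 1 or 2 (0.188 and 0.287) or shHSPA8 replicate 1 (0.0507). In shHSPA8 the edgeR adjusted p was 0.0299 without shCON replicate 2. SLC1A4, a carrier of alanine, serine and cysteine, had 36.0 and 34.1 CPM in shUCHL1, 30.03 and 31.7 CPM in shHSPA8, and 26.7 and 28.2 CPM in shCON, and did not pass the test in shUCHL1 (0.35, SE 0.10, edgeR adjusted p = 0.0575). The glutamate transporter SLC1A2 passed no comparison either.

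The heavy chain SLC3A2 and its light chains moved unequally. SLC3A2 brings the SLC7A light chains to the cell surface. Among them SLC7A5 exchanges leucine and other large neutral amino acids, and SLC7A11 imports cystine in exchange for glutamate. SLC3A2 had 160 and 177 CPM in shUCHL1, 153 and 142 CPM in shHSPA8, and 99.5 and 124 CPM in shCON. All knockdown libraries lay above shCON, and the shUCHL1 rise passed the test (0.59, SE 0.12, edgeR adjusted p = 0.0201). The difference in shHSPA8 did not (0.40, SE 0.12, edgeR adjusted p = 0.0741, and 0.0138 without shCON replicate 2). The shUCHL1 call was lost without shUCHL1 replicate 1 or 2 (edgeR adjusted p = 0.103 and 0.187).

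SLC7A11 had 17.4 and 12.9 CPM in shUCHL1, 4.17 and 10.1 CPM in shHSPA8, and 4.56 and 2.57 CPM in shCON. Both shUCHL1 libraries were above all others, while shHSPA8 overlapped shCON and its libraries were far apart. The rise in shUCHL1 was 4.24-fold (2.09, SE 0.42, edgeR adjusted p = 0.0178), and it was lost without shCON replicate 2, shUCHL1 replicate 1 or shUCHL1 replicate 2 (edgeR adjusted p = 0.0554, 0.103 and 0.0518). In shHSPA8 the log2 fold change of SLC7A11 was 1.00 (SE 0.45, edgeR adjusted p = 0.194). It came to 1.5 with an edgeR adjusted p of 0.0427 without shHSPA8 replicate 1. Against shHSPA8, SLC7A11 in shUCHL1 had a log2 fold change of 1.09 (SE 0.39, edgeR adjusted p = 0.108), and 1.85 without shHSPA8 replicate 2 (edgeR adjusted p = 0.0319). Its replicates differed the way longer transcripts did, but the part of length in this was not tested. After the length correction the log2 fold change in shUCHL1 against shCON was 2.05 (edgeR adjusted p = 0.00577).

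SLC7A5 was the light chain that rose in shHSPA8. It had 167 and 166 CPM in shUCHL1, 210 and 204 CPM in shHSPA8, and 142 and 164 CPM in shCON. Both shHSPA8 libraries stood above all others (0.43 against shCON, SE 0.10, edgeR adjusted p = 0.0254). That call was lost without shUCHL1 replicate 1 or 2 (edgeR adjusted p = 0.0984 and 0.0992) and without shHSPA8 replicate 1 or 2 (0.128 and 0.0953). In shUCHL1 the log2 fold change of SLC7A5 against shHSPA8 was -0.31 (SE 0.10, edgeR adjusted p = 0.0711), and the edgeR adjusted p became 0.0169 and 0.0187 when shCON replicate 1 or 2 was dropped. The summed FPKM of the 6 light chains of SLC3A2 was 58.0 and 56.7 in shUCHL1, 64.0 and 64.4 in shHSPA8, and 46.6 and 50.1 in shCON, below that of SLC3A2 itself in every library. SLC7A5 held 78.8% to 85.8% of that sum in every line. SLC7A11 held 7.98% and 6.17% in shUCHL1, 1.72% and 3.90% in shHSPA8, and 2.49% and 1.30% in shCON. The arginine and lysine carriers SLC7A1 and SLC7A2, the light chains SLC7A6 and SLC7A7, and SLC7A6OS passed no comparison. SLC7A6OS, the highest of these per length, had 30.9 and 29.8 CPM in shUCHL1, 32.5 and 30.9 CPM in shHSPA8, and 27.2 and 27.97 CPM in shCON. The other heavy chain, SLC3A1, averaged 0.580 FPKM and had log2 fold changes of -0.22 (SE 0.41) in shUCHL1 and 0.97 (SE 0.36) in shHSPA8 against shCON, neither past the test. For SLC3A1 in shUCHL1 against shHSPA8 the edgeR adjusted p was 0.0722 with all libraries, and 0.0354 and 0.0357 when shCON replicate 1 or 2 was dropped.

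Of the 6 tested sodium- and chloride-coupled SLC6A carriers, 3 rose and 1 fell in shUCHL1, and 1 rose in shHSPA8. Over all genes tested, 8.54% rose and 7.15% fell in shUCHL1, and 8.66% rose in shHSPA8. In shUCHL1 the glycine transporter SLC6A9, the vesicular neutral amino acid transporter SLC6A17 and the proline carrier SLC6A20 rose, and the taurine transporter SLC6A6 fell. SLC6A9 had 48.9 and 46.5 CPM in shUCHL1, 38.7 and 34.4 CPM in shHSPA8, and 29.5 and 32.1 CPM in shCON. It was 1.55-fold higher in shUCHL1 than in shCON (0.63, SE 0.11, edgeR adjusted p = 0.00972). SLC6A17 had 30.7 and 28.3 CPM in shUCHL1, 23.7 and 22.0 CPM in shHSPA8, and 17.5 and 17.6 CPM in shCON, a 1.68-fold rise in shUCHL1 (0.75, SE 0.11, edgeR adjusted p = 0.00525). For both genes the lines did not overlap, with shHSPA8 between shUCHL1 and shCON, but shHSPA8 did not pass the test against shCON (edgeR adjusted p = 0.189 for SLC6A9 and 0.0645 for SLC6A17). In shUCHL1 against shHSPA8 the edgeR adjusted p was 0.0557 for SLC6A9 and 0.0639 for SLC6A17, and from 0.0287 to 0.0395 for both without either shCON library. Against shCON, the edgeR adjusted p without shUCHL1 replicate 1 and 2 was 0.122 and 0.0863 for SLC6A9, and 0.082 and 0.0502 for SLC6A17.

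SLC6A20 was barely present in shCON and rose in both knockdown lines. It had 20 and 16 counts in shUCHL1, 37 and 37 in shHSPA8, and 2 and 4 in shCON. The fitted log2 fold change was 2.5 (SE 0.43) in shUCHL1, with an edgeR adjusted p of 0.00952, and 3.61 (SE 0.37) in shHSPA8, with an edgeR adjusted p of 0.00102. Both depend on the few shCON reads. SLC6A20 was lower in shUCHL1 than in shHSPA8 (-1.11, SE 0.26, edgeR adjusted p = 0.0324). The shUCHL1 call was lost without shUCHL1 replicate 1 (edgeR adjusted p = 0.0807). The difference between the knockdown lines was lost without shUCHL1 replicate 1 or 2 (edgeR adjusted p = 0.156 and 0.247) and without shHSPA8 replicate 1 or 2 (0.140 and 0.118). The span of SLC6A20 overlaps a transcribed pseudogene, LOC108633224, that did not enter the test. That of SLC6A9 overlaps CCDC24, which had log2 fold changes of 0.22 in shUCHL1 and -0.28 in shHSPA8 against shCON.

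SLC6A6 had 86.2 and 80.6 CPM in shUCHL1, 101 and 108 CPM in shHSPA8, and 111 and 105 CPM in shCON. The shUCHL1 libraries were below the other 4 (-0.37 against shCON, SE 0.09, edgeR adjusted p = 0.0343). The call was lost without shUCHL1 replicate 1 or 2 (edgeR adjusted p = 0.184 and 0.282) or shHSPA8 replicate 1 or 2 (0.0606 and 0.0602). Against shHSPA8 the edgeR adjusted p of SLC6A6 was 0.0559, and 0.0279 and 0.0298 when shCON replicate 1 or 2 was dropped. The creatine transporter SLC6A8 had 45.6 and 47.4 CPM in shUCHL1, 51.0 and 47.3 CPM in shHSPA8, and 38.8 and 48.7 CPM in shCON. It passed no comparison, and neither did the serotonin transporter SLC6A4.

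Of the sodium-coupled SLC5A carriers, the biotin and pantothenate transporter SLC5A6 fell in shUCHL1. It had 28.2 and 30.6 CPM in shUCHL1, 35.9 and 34.1 CPM in shHSPA8, and 40.6 and 44.0 CPM in shCON, with no overlap between lines and shHSPA8 in the middle. The change was -0.52 (SE 0.10, edgeR adjusted p = 0.0166) in shUCHL1, and the call was lost without shUCHL1 replicate 1 or 2 (edgeR adjusted p = 0.187 and 0.110). In shHSPA8 against shCON the log2 fold change was -0.27 (SE 0.10, edgeR adjusted p = 0.131). The inositol carrier SLC5A3 had 121 and 110 CPM in shUCHL1, 77.4 and 114 CPM in shHSPA8, and 106 and 68.6 CPM in shCON, with wide overlap between shHSPA8 and shCON and no call. Its span overlaps that of MRPS6, as that of SLC3A1 overlaps PREPL.

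Of the 9 tested SLC38A carriers, 1 was called in each comparison, against 15.7% of all genes in shUCHL1 against shCON, 14.7% in shHSPA8 against shCON and 14.6% between the knockdown lines. SLC38A2 had 657 and 621 CPM in shUCHL1, 617 and 789 CPM in shHSPA8, and 794 and 606 CPM in shCON, and all lines overlapped. Its log2 fold changes were -0.13 (SE 0.16) in shUCHL1 and 0.01 (SE 0.16) in shHSPA8 against shCON. SLC38A1 showed the same arrangement, at 86.3 and 71.9 CPM in shUCHL1, 71.0 and 110 CPM in shHSPA8, and 105 and 64.0 CPM in shCON. In both genes the higher shCON library was replicate 1 and the higher shHSPA8 library replicate 2, the libraries in which longer transcripts were also higher. SLC2A3, with a length of 1203 bases drawn from its FPKM, split the same way. The part of transcript length in these splits was not tested. After the length correction the log2 fold change of SLC38A2 was -0.18 in shUCHL1 (edgeR adjusted p = 0.236) and 0.02 in shHSPA8 (edgeR adjusted p = 0.928).

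Among the fainter SLC38A genes, SLC38A8, a glutamine carrier, rose in shUCHL1 and SLC38A4 rose in shHSPA8. SLC38A8 had 4.77 and 4.50 CPM in shUCHL1, 2.59 and 2.33 CPM in shHSPA8, and 2.98 and 2.51 CPM in shCON. It was higher in shUCHL1 than in shCON (0.76, SE 0.18, edgeR adjusted p = 0.0348) and than in shHSPA8 (0.91, SE 0.19, edgeR adjusted p = 0.0216). The span of SLC38A8 overlaps that of NECAB2, which had a log2 fold change of -0.29 in shUCHL1 against shCON. Against shCON the call of SLC38A8 was lost without shCON replicate 2 (edgeR adjusted p = 0.103), shUCHL1 replicate 1 or 2 (0.240 and 0.176) or shHSPA8 replicate 1 or 2 (0.0579 and 0.0578). Against shHSPA8 it was lost without shUCHL1 replicate 1 or 2 (edgeR adjusted p = 0.175 and 0.134) or shHSPA8 replicate 1 or 2 (0.0956 and 0.108). SLC38A4 had 20 and 15 counts in shUCHL1, 22 and 25 in shHSPA8, and 9 and 10 in shCON. The rise in shHSPA8 (1.33, SE 0.31, edgeR adjusted p = 0.0311) was lost without any 1 library, with edgeR adjusted p from 0.0665 without shUCHL1 replicate 2 to 0.155 without shHSPA8 replicate 2. SLC38A9, the lysosomal arginine sensor of mTORC1, and SLC38A3, SLC38A6, SLC38A7 and SLC38A10 passed no comparison.

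In the SLC43A family, SLC43A2, which carries large neutral amino acids without sodium, rose in shHSPA8. It had 8.55 and 8.03 CPM in shUCHL1, 13.5 and 13.3 CPM in shHSPA8, and 8.23 and 8.45 CPM in shCON. The shHSPA8 libraries stood well above the other 4, which overlapped. SLC43A2 was 1.60-fold higher in shHSPA8 than in shCON (0.68, SE 0.12, edgeR adjusted p = 0.0121), and lower in shUCHL1 than in shHSPA8 (-0.69, SE 0.12, edgeR adjusted p = 0.0136). Without shHSPA8 replicate 1 or 2 the edgeR adjusted p against shCON was 0.0659 or 0.0625. In shUCHL1 against shHSPA8 it was 0.124 or 0.156 without shUCHL1 replicate 1 or 2, and 0.079 or 0.062 without shHSPA8 replicate 1 or 2, in the same edgeR test. SLC43A3 had 253 and 252 CPM in shUCHL1, 301 and 274 CPM in shHSPA8, and 277 and 331 CPM in shCON, and was not called (-0.27 in shUCHL1, SE 0.11, edgeR adjusted p = 0.143, and 0.0189 without shCON replicate 1). SLC43A1 and SLC36A4, which carries proline and tryptophan, passed no comparison. SLC36A4 had 41.6 and 38.3 CPM in shUCHL1, 32.9 and 43.4 CPM in shHSPA8, and 41.4 and 30.7 CPM in shCON.

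Among 16 tested partners and regulators of these carriers, 6 rose and 1 fell in shUCHL1, against 8.54% and 7.15% of all genes tested. In shHSPA8 4 rose and none fell, against 8.66% and 6.02% of all genes. TXNIP and ARRDC4, arrestin-family proteins known to hold back glucose uptake, were higher in both knockdown lines. TXNIP averaged 154 CPM in shUCHL1, 148 CPM in shHSPA8 and 56.3 CPM in shCON, a log2 fold change of 1.45 (SE 0.10) in shUCHL1 and 1.39 (SE 0.10) in shHSPA8. ARRDC4 averaged 47.7 CPM in shUCHL1, 52.7 CPM in shHSPA8 and 26.2 CPM in shCON. NEDD4L, a ubiquitin ligase that acts on several membrane transporters, averaged 51.0 CPM in shUCHL1, 26.1 CPM in shHSPA8 and 6.74 CPM in shCON. In edgeR's test the adjusted p of TXNIP, ARRDC4 and NEDD4L ran from 0.000113 to 0.00579 over both comparisons with shCON. Without shUCHL1 replicate 1, 2 partners were up in shUCHL1, and none was down when either shUCHL1 library or shCON replicate 2 was dropped.

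The amino acid response is the programme by which ATF4 raises amino acid synthesis and uptake when amino acids are short. Of its 31 tested genes, 14 rose and 2 fell in shUCHL1, against 8.54% and 7.15% of all genes tested, with a median log2 fold change of 0.36 beside 0.01 over all genes tested. In shHSPA8, 10 rose and 3 fell, against 8.66% and 6.02% of all genes, with a median of 0.09. The serine synthesis enzyme PSAT1 averaged 124 CPM in shUCHL1, 111 CPM in shHSPA8 and 51.9 CPM in shCON. The stress sensor SESN2 averaged 30.6 CPM in shUCHL1, 14.3 CPM in shHSPA8 and 12.04 CPM in shCON. CHAC1, which degrades glutathione, averaged 9.89 CPM in shUCHL1, 3.70 CPM in shHSPA8 and 3.36 CPM in shCON. CHAC1 and SESN2 rose in shUCHL1 (edgeR adjusted p = 0.00344 and 0.00266), and PSAT1 rose in both lines (edgeR adjusted p = 0.000377 in shUCHL1 and 0.000458 in shHSPA8). Without shUCHL1 replicate 1 or 2, 9 or 8 genes of this list were up and 1 was down in shUCHL1, and without shHSPA8 replicate 2 1 was down in shHSPA8.

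Of 26 tested glycolysis enzymes, 2 rose and 2 fell in shUCHL1, where 8.54% of all genes rose and 7.15% fell. In shHSPA8 4 rose and 1 fell, where 8.66% of all genes rose and 6.02% fell. The muscle-type enolase ENO3 fell in both, averaging 19.2 CPM in shUCHL1, 20.0 CPM in shHSPA8 and 50.8 CPM in shCON. The common enolase ENO1 rose in shHSPA8, averaging 1620 CPM in shUCHL1, 2292 CPM in shHSPA8 and 1295 CPM in shCON (0.82 in shHSPA8 against shCON, SE 0.11, edgeR adjusted p = 0.00343). Hexokinase HK2, which traps glucose in the cell, rose in shUCHL1, and HK1 rose in shHSPA8 (edgeR adjusted p = 0.0311 and 0.0303). Dropping either shUCHL1 library left none of these enzymes up and 1 down in shUCHL1, and dropping either shHSPA8 library left 1 up and 1 down. In shUCHL1, 4 were down without shCON replicate 1 and 1 without shCON replicate 2. In shHSPA8, 8 were up without shCON replicate 2 and 2 without any 1 of the knockdown libraries, and 2 were down without shCON replicate 1. Among 15 tested enzymes of glutamine, glutamate and serine metabolism, 2 rose and 4 fell in shUCHL1, against 8.54% and 7.15% of all genes tested. None rose and 4 fell in shHSPA8, against 8.66% and 6.02%. Glutamine synthetase (GLUL) averaged 66.0 CPM in shUCHL1, 84.0 CPM in shHSPA8 and 93.5 CPM in shCON and fell in shUCHL1 (-0.50, SE 0.09, edgeR adjusted p = 0.00979). Glutamate dehydrogenase (GLUD1) averaged 247 CPM in shUCHL1, 187 CPM in shHSPA8 and 270 CPM in shCON and fell in shHSPA8 (-0.53, SE 0.09, edgeR adjusted p = 0.00933). Dropping either shUCHL1 library left 1 of these enzymes up and none down in shUCHL1 and 2 down in shHSPA8. Dropping either shHSPA8 library left 1 up in shUCHL1, and without shHSPA8 replicate 1 only 1 was down in shHSPA8. Of 29 tested genes of amino acid sensing by mTORC1, 3 fell and none rose in shUCHL1, and 2 rose and none fell in shHSPA8. These counts are below or near the shares over all genes (15.7% called in shUCHL1 and 14.7% in shHSPA8). MTOR itself was called in shHSPA8 (0.42, SE 0.09, edgeR adjusted p = 0.0222). No gene of that list was down in shUCHL1 when either shUCHL1 library was dropped, while 6 were without shCON replicate 1. In shHSPA8 none was up without any 1 of the knockdown libraries, and 1 was up without shCON replicate 1.

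The remaining transporter genes were too faint to test. The 27 genes with values that did not pass the low-count filter had at most 10 counts in a library and at most 0.182 FPKM on average, among them the sodium-glucose carriers SLC5A2, SLC5A9 and SLC5A10. SLC6A2, the noradrenaline transporter, had 5 and 2 counts in shUCHL1, 8 and 9 in shHSPA8, and 0 and 2 in shCON. SLC7A4 had 3 counts in every knockdown library and 0 in both shCON libraries, and SLC2A9, a urate carrier, had 3 and 4 counts in shUCHL1, 0 and 1 in shHSPA8, and 0 in both shCON libraries. These counts are too low for a difference to be read. Another 12 genes had blank entries.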

How the data were processed

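Messenger RNA of 6 libraries, 2 from each of 3 lines, was analysed from 1 deposited table. Trimmomatic 0.36 is named in the submitters' processing notes. Which aligner, counter, genome build or strand setting was used is not given in the sources used here. The authors deposited an FPKM value and a read count per library, per the file headers. Between 1014 and 1117 genes per library carry decimal fractions, so the deposited counts were treated, as deposited, as an estimated count per gene and rounded to whole numbers. The authors also deposited line means, log2 ratios and p-values, per the file headers, which were not used. All 91 gene IDs matched RefSeq's gene list (assembly ARS1.2) by ID and symbol, which served for overlaps between genes only.

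The test was edgeR 4.0.16 (R 4.3.3): glmQLFit and glmQLFTest on 12665 genes kept by filterByExpr, scaled by TMM, with line as the sole term and Benjamini-Hochberg adjustment per comparison. The standard error is the log2 fold change divided by the square root of F. Fits were tested on simulated data. Alternatives included DESeq2 1.42.0, other scalings and filters, a replicate block, each library left out, and, chosen after seeing the data, a length correction and crossed replicate numbers. Named were every called transporter gene, the most abundant uncalled one per family, and up to 5 called genes per other list. The genes, lists and tests were chosen with earlier results of these data known. SLC38A1, BSG, SLC6A2, SLC7A4, SLC2A9 and the markers named singly were picked after their values were seen. Sequences are not shown.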

Additional observations from a re-analysis of the deposited data

How the results depend on the processing

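With 2 libraries per line, the counts of calls depend on the libraries kept. Leaving out 1 library at a time gave 528 to 2615 genes called in shUCHL1 against shCON, with 3 to 10 transporter genes higher and 0 to 7 lower. In shHSPA8 against shCON it gave 920 to 2416 genes, with 3 to 9 higher and 1 to 4 lower. Between the knockdown lines it gave 257 to 3083 genes, with 0 to 8 higher and 0 to 10 lower in shUCHL1. With library size as the only scaling, 1 transporter gene was lower in shUCHL1 against shCON and 8 were higher in shUCHL1 against shHSPA8, and the median of all genes in that comparison was 0.12. With only the compared lines in the fit, 1 transporter gene was lower in shUCHL1 against shCON, 1104 genes were called in shHSPA8 against shCON, and 3116 genes between the knockdown lines, with 8 transporter genes higher and 10 lower. After the length correction, 5 were lower in shUCHL1 and 11 higher in shHSPA8 against shCON, and 2895 genes were called between the knockdown lines, with 9 transporter genes lower. Among the named genes this correction lost no call. Against shCON it gained SLC16A3 in shUCHL1 (edgeR adjusted p = 0.0426), and SLC1A5 and SLC3A2 in shHSPA8 (edgeR adjusted p = 0.0265 and 0.0153). Between the knockdown lines it gained SLC2A4RG, SLC3A1, SLC6A6 and SLC7A5. The replicate numbers as given were not taken to pair the samples, as no label says that they do. Same-numbered deviations correlated across genes at 0.459 between shUCHL1 and shCON, -0.786 between shHSPA8 and shCON, and -0.478 between shUCHL1 and shHSPA8. All these signs would be positive with the shHSPA8 numbers swapped. They cannot tell crossed numbers from numbers that never paired the samples, and this was not tested. With the replicate block, 1230 and 1131 genes were called in shUCHL1 and shHSPA8 against shCON and 923 between them, with no transporter gene lower in shUCHL1 against shCON and 2 lower against shHSPA8. With a block on crossed numbers in a fit of shHSPA8 and shCON alone, 5464 genes were called, with 21 transporter genes higher and 5 lower. The cause of these shifts was not tested. DESeq2, RLE factors and both other filters kept every count of transporter calls within 1.5 times, but not every call. Among the named genes, DESeq2 lost SLC2A10, SLC16A4, SLC16A6 and SLC38A8 in shUCHL1 against shCON and SLC38A4 in shHSPA8 against shCON. Between the knockdown lines it lost SLC6A20, SLC16A6 and SLC38A8 and gained SLC2A4RG and SLC7A11, while RLE factors gained SLC6A6. Both other filters lost SLC2A10 in shUCHL1 against shCON, and SLC16A6 lost both its calls with no filter. No called transporter gene changed sign in any alternative: of 207, 133 and 124 refits of called genes, 59, 19 and 37 lost the call in shUCHL1 against shCON, in shHSPA8 against shCON and between the knockdown lines. Calls kept under every alternative run were those of SLC1A3 and SLC2A1 in both comparisons with shCON, and of SLC6A20 and SLC16A3 in shHSPA8, where SLC6A20 did not pass the filter of at least 1 CPM in 4 libraries and has no value under it.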
